A study of Mus musculus with 4 samples.

Results

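The heat shock chaperones Hspa8, Hsph1, Hspd1, Hspe1, Hspa9, Hsp90aa1, Hsp90ab1, Dnaja1, Dnajb1 and Chordc1 were followed in the spleens of mouse pups whose mothers had or had not drunk the plasticizer benzyl butyl phthalate (BBP). These 10 genes were taken by symbol, 7 of them coding for cytosolic and 3 for mitochondrial proteins, out of 30738 gene symbols on the array. A transcript cluster, the array's unit for 1 transcribed locus, carried the symbol of 9 members, and 8 of these 9 were among the 10716 genes in the test across genes. Hsp90ab1 had no cluster with its symbol in the annotation used and was not analysed here. Where a member had several clusters, the one with the highest mean signal among those with that symbol alone was taken. For Hsp90aa1 this is the cluster of its own chromosome and not the one with the highest mean of all, which also carries another symbol.

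Heat shock proteins bind unfolded or partly folded proteins, keep them from clumping and help them to fold. In the cytosol the HSP70 protein of Hspa8 receives its clients from J-domain partners such as those of Dnaja1 and Dnajb1, releases them with the help of the HSP110 protein of Hsph1, and passes some of them on to HSP90, the product of Hsp90aa1 and Hsp90ab1. Chordc1 codes for a co-chaperone of HSP90. In the mitochondrial matrix Hspa9 is the local HSP70, while Hspd1 (HSP60) and its lid Hspe1 (HSP10) form the folding chamber. Many of these genes are switched on by heat shock factor 1, which binds inverted repeats of the unit GAA in their promoters.

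Splenocyte RNA of DBA/1 offspring at an age of 3 weeks was hybridised to 4 Clariom D mouse arrays, 1 for each sex and exposure, and every array held a pool. The BBP pools came from 4 males and 6 females whose dams received 3 μg/ml BBP in the drinking water from 1 week before mating until weaning, while 4 males and 12 females of dams on normal water made up the control pools. The pups had not been immunized and carried no transgene. Litters were not given, so that litter and exposure cannot be told apart, and a pool shows nothing of the spread between its animals. The values are linear array signals without replicate arrays, in which fewer cells of a type and less RNA per cell cannot be told apart.

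Signals cannot be compared in level between genes, since each cluster has its own probes, but within a gene they can be compared between pools. The median of the negative control features lay between 51.1 and 64.1, and a gene was tested when 2 or more arrays reached a signal of 100. The median signal of these genes was 516.65 and 527.1 in the control female and control male pools against 476.05 and 470.1 in the BBP pools. The median of the log2 BBP/control ratios over these genes was −0.09 in the female and −0.15 in the male pair, and values relative to these medians are given where they matter. The spleen was visible in its markers, of which 9 of 10 for B cells, 9 of 11 for T cells and 12 of 16 for erythroid cells were measured.

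The promoters are shown first because heat shock factor 1 is a known regulator of this gene group. RefSeq windows of GRCm38.p6, from 250 bases before to 50 bases after a transcription start, were used for 6 members in 11 windows. They were searched for the palindromes GAANNTTC and TTCNNGAA, each of which reads the same on both strands, and for 3 alternating units in a row, which contain 2 overlapping palindromes. A palindrome was present in 15.1% and 3 units in 0.603% of all 32851 windows, and in at least 1 window of 17.0% and 0.662% of all 27025 genes. Of the 6 members searched, 5 had a palindrome and 4 (Hspd1, Hspe1, Hsph1 and Chordc1) had 3 units. The promoters of Hspa8, Hspa9, Hsp90aa1 and Hsp90ab1 were not searched, and these counts do not cover them. The following windows, 1 for each gene, show the runs of units in Hspe1 (shared with Hspd1), Hsph1 and Chordc1 and, for contrast, the single palindrome of Dnaja1, with matches in capitals.
Hspe1: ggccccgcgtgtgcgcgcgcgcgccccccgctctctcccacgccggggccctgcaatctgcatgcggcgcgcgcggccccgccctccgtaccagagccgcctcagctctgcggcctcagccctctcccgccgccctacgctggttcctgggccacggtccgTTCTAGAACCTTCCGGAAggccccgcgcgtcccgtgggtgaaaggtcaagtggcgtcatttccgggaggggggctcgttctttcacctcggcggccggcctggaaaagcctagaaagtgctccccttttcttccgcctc
Hsph1: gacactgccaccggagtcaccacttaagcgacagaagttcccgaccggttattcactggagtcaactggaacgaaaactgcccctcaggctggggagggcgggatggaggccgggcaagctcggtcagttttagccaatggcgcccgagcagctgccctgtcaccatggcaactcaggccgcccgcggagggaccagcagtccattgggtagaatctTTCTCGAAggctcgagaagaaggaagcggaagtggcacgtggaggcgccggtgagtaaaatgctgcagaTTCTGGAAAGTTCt
Chordc1: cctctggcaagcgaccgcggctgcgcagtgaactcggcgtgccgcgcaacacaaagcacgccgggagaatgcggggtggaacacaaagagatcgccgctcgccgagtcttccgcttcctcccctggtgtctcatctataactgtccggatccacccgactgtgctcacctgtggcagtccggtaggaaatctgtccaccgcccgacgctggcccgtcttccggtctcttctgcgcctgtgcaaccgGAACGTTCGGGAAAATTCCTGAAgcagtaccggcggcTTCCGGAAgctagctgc
Dnaja1: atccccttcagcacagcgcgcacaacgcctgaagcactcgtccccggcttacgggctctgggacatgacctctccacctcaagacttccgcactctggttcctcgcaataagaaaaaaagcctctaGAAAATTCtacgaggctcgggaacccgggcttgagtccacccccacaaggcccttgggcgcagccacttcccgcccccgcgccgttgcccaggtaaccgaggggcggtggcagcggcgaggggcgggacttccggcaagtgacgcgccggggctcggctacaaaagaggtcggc

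Hspd1 and Hspe1 lie head to head on chromosome 1 and are read from a common stretch of DNA. The Hspe1 window, chr1:55087898-55088197 on the plus strand, shares 285 bases with a window of Hspd1 on the minus strand, chr1:55087883-55088182, and both contain the same run of 4 units. The run starts 89 bases before the Hspe1 start. The Hsph1 window, chr5:149636287-149636586 on the minus strand, held 1 palindrome 33 bases before the start and a run of 3 units after it, from position 37. The Chordc1 window, chr9:18292017-18292316 on the plus strand, held a run of 5 units across the start and a further palindrome at position 34. Of the 3 Dnaja1 windows, only that at chr4:40722218-40722517 on the plus strand had a match, 1 palindrome 124 bases before the start. No match was found in the 2 windows of Dnajb1, which says only that these letters are not in them. A match is a description of the sequence and not a binding site.

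**Figure D1:**
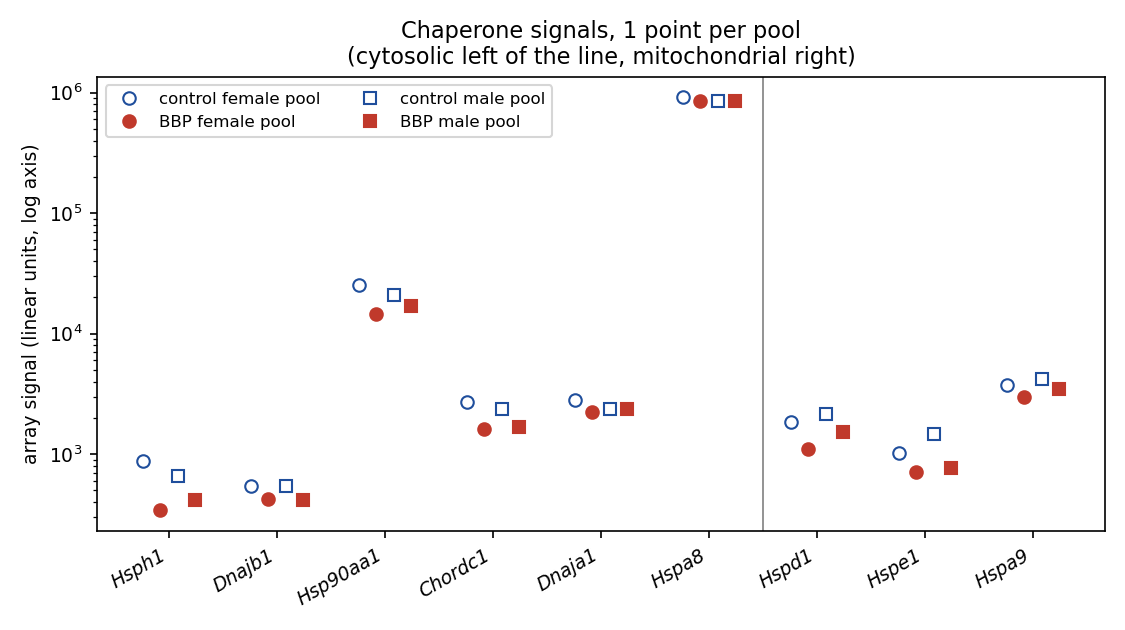
Array signal (linear units on a log axis) of the 9 measured chaperones, with 1 point for each pool. Open symbols are control pools and filled symbols BBP pools, circles are females and squares males. Except for Hspa8, both filled symbols lie below both open symbols, and for Dnaja1 only by 21.2 signal units.

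Most of the chaperones had lower signals in the offspring of BBP-exposed dams. In the deposited values, 8 of 9 measured members were lower in both pool pairs, and in the same 8 both BBP pools lay below both control pools. Over all genes tested, 51.5% were lower in both pairs and 39.7% had both BBP pools below both control pools, and the count of the members is read against these shares. After scaling the arrays to the same median or to the same quantiles, 7 of 9 members stayed lower in both pairs and 6 of 9 had separate pools, since Dnaja1 turned higher in the male pair and the pools of Hspa9 overlapped. Of all genes, 32.6% and 34.0% were lower in both pairs under these scalings. The share of all genes with separate pools was not computed for them, so the 6 of 9 has no matching share. In limma with exposure and sex as terms, 0 of 8 tested members passed an adjusted p of 0.05, against 1.19% of all genes that were lower and passed. At an unadjusted p under 0.05, 6 of 8 members were lower, against 21.1% of all genes. The members were chosen with earlier results of these data known, which by itself can raise such counts above the shares of all genes. The limma fit has 1 residual degree of freedom, and an exact permutation test of 2 pools against 2 cannot go below p = 0.333.

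Hsph1, the HSP110 exchange factor of HSP70, had the lowest BBP/control ratio of the members in the female pair and on average, while Hspe1 was lower in the male pair. Its signal was 875 in the control female, 341.2 in the BBP female, 663 in the control male and 412.8 in the BBP male pool. Both BBP pools were thus well below both controls, with the wider gap in females. The female pair differed 2.56-fold and the male pair 1.61-fold. The limma estimate was a log2 fold change of −1.02 (SE 0.19, adjusted p = 0.069), and 1.27% of the genes tested had a lower estimate. No member was at least 2-fold lower in both pairs, as 0.541% of all genes were. Hsph1 alone of the members was at least 1.5-fold lower in both, and the share of all genes at this fold was not computed.

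Hsp90aa1, the stress-inducible form of cytosolic HSP90, followed Hsph1 in the female pair. The cluster on its own chromosome, 12, had signals of 25130 (control female), 14431 (BBP female), 20874 (control male) and 16942 (BBP male). The female pair differed 1.74-fold and the male pair 1.23-fold, and the limma estimate was −0.55 (SE 0.18, adjusted p = 0.15). Both other clusters that carry its symbol lie on another chromosome, also carry the symbol of a gene model there and had the higher mean signals. The cluster shared with Gm12346 on chromosome 11 had a log2 BBP/control of −0.88 in the female and −0.66 in the male pair, and that shared with Gm5844 on chromosome 3 had −1.04 and −0.70. All 3 were lower in both pairs, and how much of their signal comes from a common transcript was not tested.

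Chordc1, the HSP90 co-chaperone, had lower BBP signals in both sexes. Its signals were 2684 and 1627 in the control and BBP female pools and 2371 and 1665 in the male pools. The controls lay 706.1 signal units or more above the BBP pools. The female pair differed 1.65-fold and the male pair 1.42-fold (log2 fold change −0.62, SE 0.14, limma adjusted p = 0.086).

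The J-domain partners of HSP70 differed less. Dnajb1, which stimulates the ATP hydrolysis of HSP70, had signals of 547.7 and 546.2 in the control female and male pools and of 427.6 and 419.6 in the BBP pools. The sexes were thus almost alike within each exposure, and the pairs differed 1.28-fold and 1.30-fold (log2 fold change −0.37, SE 0.11, limma adjusted p = 0.13). Dnaja1, which also codes for a J-domain protein, had signals of 2827 and 2253 in the female pair and of 2379 and 2358 in the male pair. The male pair differed by only 1.01-fold. Set against the median gene, the female pair of Dnaja1 stood at −0.23 and the male pair at 0.14 on the log2 scale. The only cluster of Dnaja1 also carries the microRNA gene Mir207, so it entered only a limma fit over all 16915 transcript clusters, where its log2 fold change was −0.17 (SE 0.16, adjusted p = 0.55).

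Hspa8, the constitutive HSP70 of the cytosol, was close to the top of the scale in the cluster with the highest mean. That cluster lies on chromosome 6 and not on the gene's own chromosome, 9. Its signals were 910354 in the control female, 848358 in the BBP female and 853467 in both male pools, close to the highest cluster value of the table, 999969. The female pair had a log2 BBP/control of −0.10 and the male pair one of 0.00, and the limma estimate was −0.05 (SE 0.12, adjusted p = 0.81). Of the 164 clusters with a mean above 500000, 76 held 1 and the same value in both male arrays, and 78 did so in both female arrays.

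The cluster of Hspa8 on chromosome 9, which also carries the small nucleolar RNA genes Snord14c, Snord14d and Snord14e, gave lower signals. They were 38716 in the control female, 29093 in the BBP female, 32702 in the control male and 30345 in the BBP male pool. Here both BBP pools were below both controls, with log2 BBP/control values of −0.41 and −0.11 and a log2 fold change of −0.26 (SE 0.15, adjusted p = 0.34) in the limma fit over all clusters. With the arrays scaled to the same median, the male value became 0.06. The clusters with the symbol on chromosomes 1, 5 and 14 had values between −0.57 and −0.16 in females and between −0.20 and 0.00 in males.

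In the mitochondrion both parts of the folding chamber were lower. Hspd1 had signals of 1856 in the control female, 1110 in the BBP female, 2137 in the control male and 1512 in the BBP male pool. Hspe1 had signals of 1021, 712.7, 1463 and 774.1 in the same order. For both genes the BBP pools lay below the controls, but the larger ratio was in females for Hspd1 (1.67-fold against 1.41-fold) and in males for Hspe1 (1.89-fold against 1.43-fold). The sex with the larger ratio thus differed between these genes, which share a promoter stretch. With 1 array per pool, this cannot be told apart from variation between arrays. The limma estimates were −0.62 for Hspd1 (SE 0.14, adjusted p = 0.085) and −0.72 for Hspe1 (SE 0.15, adjusted p = 0.078).

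Hspa9, the HSP70 of the matrix, differed least of the mitochondrial members. Its signals were 3720 and 2952 in the female pair and 4209 and 3470 in the male pair. The pairs differed 1.26-fold and 1.21-fold, and the limma estimate was −0.31 (SE 0.14, adjusted p = 0.23). Among the genes tested, 30.3% had a lower estimate, which places Hspa9 in the broad middle of the array.

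Processed copies of these genes with their own names were also on the array and were looked up after the members' values had been seen. Of 5 such copies tested, Hspd1-ps3 passed the test, with signals of 885.2 and 466.7 in the female and 1114 and 555.5 in the male pair (log2 fold change −0.96, SE 0.12, limma adjusted p = 0.039). The call was lost, as was that of every other gene, after quantile normalization, without the sex term and with other signal filters. It was also lost with the arrays scaled to the same median (adjusted p = 0.055) and with a pseudocount of 50 (adjusted p = 0.052), where other genes were called. Hspe1-ps3 had log2 BBP/control values of −1.02 and −0.42, and Dnaja1-ps had −0.81 and −0.07, in females and males. Hspe1-ps5 had −0.39 and −0.14, while Hspe1-ps2, with signals close to the minimum, had 0.13 and −0.07. Whether their probes also bind the parent transcripts was not tested.

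**Figure D2:**
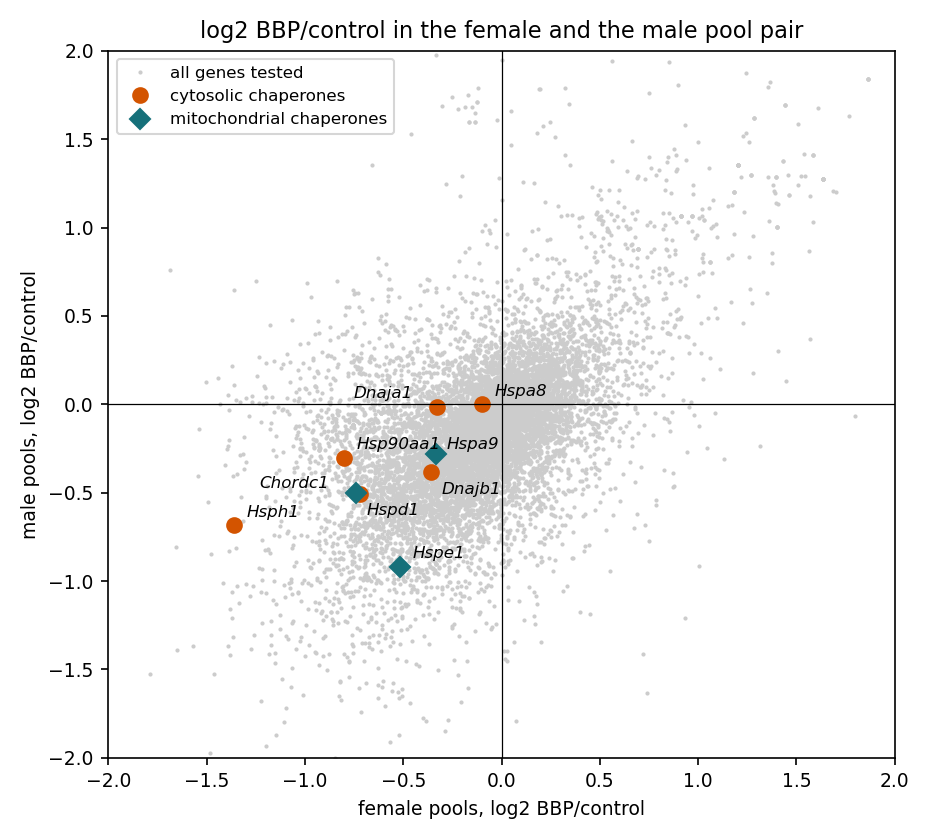
The log2 BBP/control of each gene in the female pool pair (horizontal axis) and the male pool pair (vertical axis), with the 10716 genes tested in grey, cytosolic chaperones as circles and mitochondrial chaperones as diamonds. 7 genes lie outside the axes. Hsph1 is the member farthest to the left and Hspe1 the lowest, while Hspa8 (0.00) and Dnaja1 (−0.01) sit at or near 0 in the male pair.

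The chaperones were also compared by compartment. The median log2 BBP/control of the 6 measured cytosolic members was −0.54 in the female and −0.34 in the male pair. The 3 mitochondrial members had medians of −0.52 and −0.50. The difference between the compartments was −0.02 in females and 0.16 in males, against wider ranges within each of them, and was not tested. Cytosolic values ran from −1.36 to −0.10 in females and from −0.68 to 0.00 in males, and mitochondrial values from −0.74 to −0.33 and from −0.92 to −0.28. With the chromosome 9 cluster for Hspa8, a choice made after seeing the data, the cytosolic median in females was −0.57 and that in males did not move. With the chromosome 11 cluster for Hsp90aa1 the male median was −0.45 and that in females did not move. Without Dnaja1, which was not in the test across genes, the 5 other cytosolic members had medians of −0.72 and −0.38, which differ from the mitochondrial ones by −0.20 in females and 0.12 in males, and leaving out Hspa8 instead gave the same values.

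Most of the measured cytosolic members were further below control in females. Of the 6 measured, 5 had the lower ratio in the female pair, Dnajb1 being the exception. The share of all genes with the lower ratio in females was not computed. The median ratio of all genes was −0.09 in the female and −0.15 in the male pair. Of the mitochondrial members, Hspd1 and Hspa9 had the lower ratio in females and Hspe1 in males. With 1 array per sex and exposure, a difference between the sexes in the response to BBP was not tested.

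In the control pools the sexes were ordered differently in the 2 compartments. All 6 measured cytosolic members had a lower signal in the control male than in the control female pool, with log2 male/female values from −0.40 for Hsph1 through −0.27 for Hsp90aa1, −0.25 for Dnaja1 and −0.18 for Chordc1 to −0.09 for Hspa8 and 0.00 for Dnajb1 (547.7 and 546.2). All 3 mitochondrial members had a higher signal in the control male pool, with 0.20 for Hspd1, 0.52 for Hspe1 and 0.18 for Hspa9. Among all genes tested, 46.2% were lower in the control male pool. The medians of −0.21 and 0.20 differed by −0.42. After quantile normalization both controls had the same value for Hspa8, and the other signs were kept.

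In the BBP pools this order was largely gone. The change is not a separate observation from the lower cytosolic ratios in females, since both come from the same signals. Of the 6 cytosolic members, 5 were higher in the BBP male than in the BBP female pool, up to 0.27 for Hsph1 and 0.23 for Hsp90aa1, and Dnajb1 was at −0.03. The mitochondrial members were again higher in males, with 0.45 for Hspd1, 0.12 for Hspe1 and 0.23 for Hspa9. A higher signal in the BBP male pool was found for 42.0% of all genes. The medians of the compartments were 0.05 and 0.23. Hsp90aa1 changed to −0.08 after quantile normalization.

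**Figure D3:**
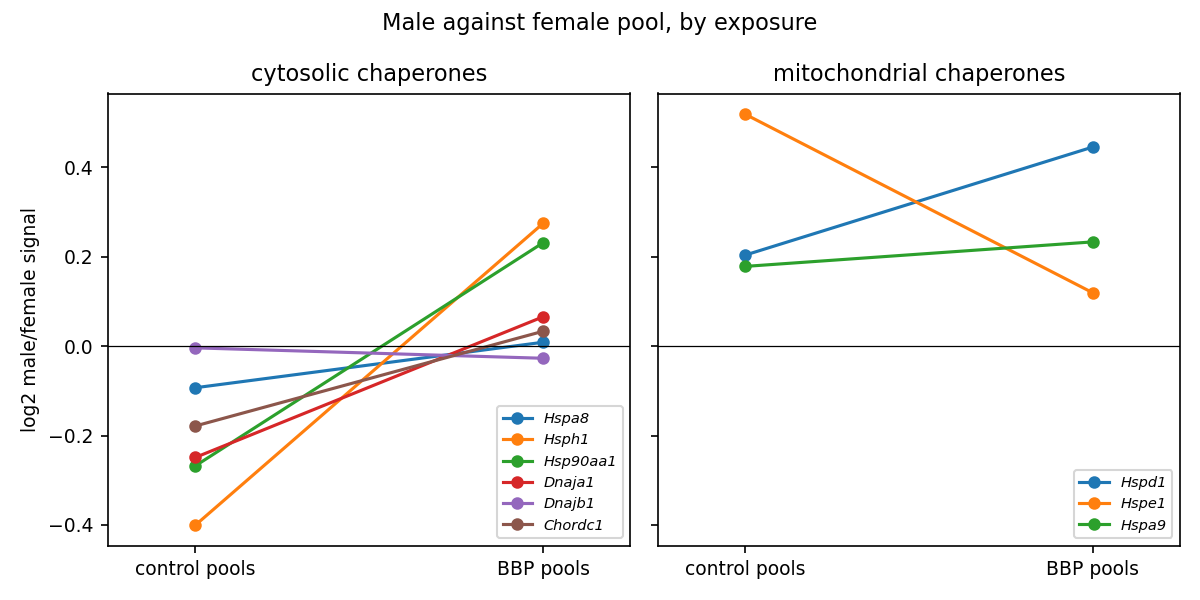
The log2 male/female signal in the control pools and in the BBP pools for the 6 cytosolic (left) and the 3 mitochondrial chaperones (right), with lines joining the values of 1 gene. Cytosolic members lie at or below 0 in the controls and mostly above 0 after BBP, while mitochondrial members lie above 0 in both.

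The HSP70, HSP110 and small heat shock genes include those that respond most strongly to heat. Of the 16 genes listed, 4 reached the minimum signal, and 0 were called. Hspa1a, the classical inducible HSP70, had signals of 23.6 (control female), 16.7 (BBP female), 18.8 (control male) and 18.4 (BBP male), below the median of the negative controls. Those measured were Hspa4 (log2 BBP/control −0.44 in females and −0.36 in males), an HSP110 relative, Hspa13 (−0.21 and −0.53), Hspa4l (−0.33 and −0.37) and Hspa14 (−0.18 and −0.36). All 4 were lower in both pairs, against 51.5% of all genes, with list medians of −0.27 and −0.36. Of 5 genes for heat shock factors and their regulators, Hsf2 (0.09 and 0.01) and Hsbp1, whose protein binds heat shock factor 1 (−0.48 and −0.52), were measured, and Hsf1 had no cluster with its symbol in the annotation used.

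The partners of HSP90 lay below control in most cases. Of 17 measured of 20 listed, 13 were lower in both pairs, against 51.5% of all genes, and 0 were higher in both, against 20.1%. Limma called 0, and at an unadjusted p under 0.05, 8 were lower, against 21.1% of all genes. The median was −0.27 in both pairs, against −0.09 and −0.15 for all genes. Fkbp4, a co-chaperone of steroid receptor complexes, had −1.03 in females and −0.56 in males. Stip1, which links HSP70 to HSP90, had −0.88 and −0.35, with signals of 6565 and 3574 in the female and 4665 and 3658 in the male pair. Ahsa1, an activator of the HSP90 ATPase, had −0.58 and −0.53, and St13, an HSP70 partner, −0.58 and −0.47.

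Other J-domain genes had medians close to 0. For the 13 measured of 18 listed they were −0.02 and −0.05, with 6 lower in both pairs, near the share of all genes, 2 higher in both and 0 called. Dnajc9, a histone chaperone with a J-domain, had −0.52 and −0.61, followed by Dnajc8 with −0.39 and −0.24. Dnajb12 (0.15 and −0.39) and Dnajb4 (0.12 and −0.25), the latter with signals close to the minimum, had opposite signs in the sexes, which was not tested. Among the 5 measured nucleotide exchange factors of HSP70, 0 were called, and Bag1 had −0.63 and −0.74, Hspbp1 −0.35 and −0.92, Sil1 0.02 and −0.38 and Bag4 −0.11 and −0.18.

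Further mitochondrial chaperones and proteases were lower in both pairs in all 10 measured of 13 listed, against 51.5% of all genes. Their medians were −0.29 (females) and −0.44 (males), and 0 were called. Htra2, a protease of the intermembrane space, had −0.60 and −1.18. Trap1, the mitochondrial HSP90, had −0.59 and −0.57, Dnaja3, the J-domain partner of Hspa9, −0.60 and −0.43, and Grpel2, its exchange factor, −0.32 and −0.58.

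The chaperones of the endoplasmic reticulum, which answer to another stress pathway, were lower to a similar degree. Of 16 measured of 18 listed, 14 were lower in both pairs, against 51.5% of all genes, and 1 was higher in both, against 20.1%. The medians were −0.54 and −0.46. The higher one was Dnajb9, a J-domain cofactor of the local HSP70, with 0.33 in females and 0.52 in males (limma adjusted p = 0.16), named after its values were seen. Sdf2l1, part of an endoplasmic reticulum chaperone complex, fell from 446.4 to 235.4 in the female and from 628.2 to 356.7 in the male pair (log2 fold change −0.87, SE 0.11, limma adjusted p = 0.042). It was the only one of the 16 to pass, against 1.19% of all genes that were lower and passed. The disulfide isomerases Pdia6 (−0.99 and −0.49) and Pdia3 (−0.80 and −0.49) and the lectin chaperone Calr (−0.93 and −0.53) were lower in both pairs without passing. This call was also lost under the alternatives in which no gene was called, and in addition with the arrays scaled to the same median (adjusted p = 0.065), with a pseudocount of 50 (adjusted p = 0.052) and without the variance trend (adjusted p = 0.052).

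**Figure D4:**
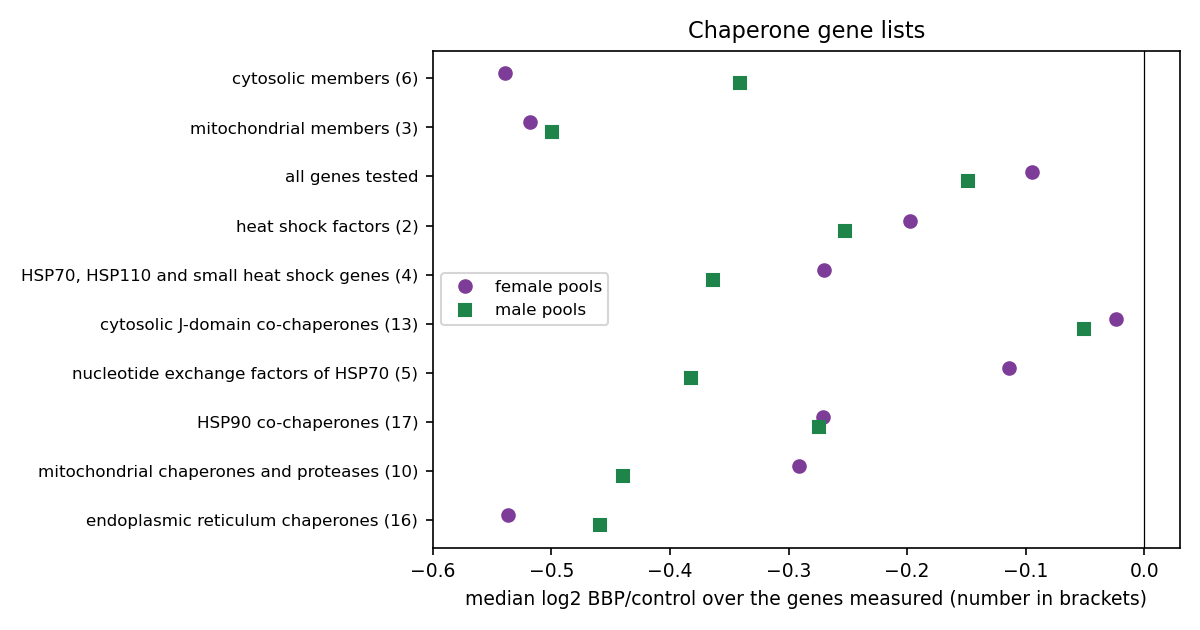
Median log2 BBP/control of each chaperone list in the female (circles) and male (squares) pool pair, with the number of genes measured in brackets and the median of all genes tested for comparison. The endoplasmic reticulum list lies beside the members, and the J-domain list lies nearest to 0.

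Markers of cell type and state also differed between the pools. The 13 measured of 15 proliferation genes were all lower in both pairs, 5 of them called by limma, against 51.5% and 1.19% of all genes. Their summed signal was 88807.5 and 97858 in the control female and male pools against 63476.5 and 63227 in the BBP pools. Sums over genes are weighted to the brightest clusters, here that of Mki67 (52903 and 52492 in the controls, 42284 and 40322 in the BBP pools). Rrm2, a subunit of ribonucleotide reductase, had −1.17 and −1.36, and Mcm2, part of the replicative helicase, −1.10 and −1.31. Of 12 measured erythroid genes 9 were lower in both pairs and 4 called, against 51.5% and 1.19% of all genes. Their summed signals were 177082 and 290094 in the control female and male pools and 114043 and 123873 in the BBP pools. In females this lower sum came from the carbonic anhydrase genes Car1 and Car2 (134058 against 58681.5), since the other 10 genes together gave 43024 in the control and 55361 in the BBP pool. In males the same 10 genes gave 97234 and 55079. Alas2, the first enzyme of heme synthesis in red cells, had 0.78 in females and −0.57 in males. These splits were made after the values were seen. Klf1, a transcription factor of red cell precursors, had −1.46 and −1.52, and Car1 −1.37 and −1.32. The BBP signals of Klf1, 63.1 in females and 74.2 in males, were close to the negative control medians of 64.1 and 56.6. This limits what its ratios show. The sum of 9 T cell markers was 54317 and 35556.5 in the controls and 88065 and 49006 in the BBP pools, with Cd4 at 0.87 and 1.05 and Cd8b1 at 0.70 and 0.72. Of these markers 6 were higher in both pairs, against 20.1% of all genes, and 0 were called, with medians of 0.52 (females) and 0.10 (males). Cd3d, at 0.31 and −0.68, named after its values were seen, was lower in males. The part of these cells in the chaperone values was not tested.

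The sum of 9 B cell markers was 260356 and 256090.5 in the controls and 208227 and 204781 in the BBP pools. Of these, 6 were lower and 2 higher in both pairs, against 51.5% and 20.1% of all genes, and 0 were called. Fcer2a had −1.18 and −0.58 and Ms4a1 −0.44 and −0.45, while the higher ones, named after their values were seen, were Blk (0.47 and 0.32) and Ebf1 (0.08 and 0.12). The 11 myeloid markers summed to 994087 and 979816 against 766655 and 904831, with the brightest clusters those of S100a8, Lyz2 and S100a9. Of the 11, 6 were lower and 1 higher in both pairs, against 51.5% and 20.1% of all genes, and 0 were called. Lyz2 had −1.06 and −0.36 and Adgre1 −0.59 and −0.77. Named after their values were seen, Vcam1 had 0.74 and 0.06, Itgam −0.56 and 0.65 and Mpo −0.37 and 0.70. Elane was also lower in females and higher in males, and Ly6g the reverse. Immediate-early genes, which respond within minutes to stimulation or handling of cells, were higher in both pairs for 10 of 13 measured, 1 of them called, against 20.1% and 1.44% of all genes, and Egr1 had 1.38 and 1.24 and Nr4a1 0.89 and 1.33. Their part in the chaperone values was not tested either.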

How the data were processed

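The deposited values are linear signal intensities, 1 per transcript cluster and array, which the authors extracted and scaled between arrays by MAS 5.0 (the processing notes of the submitters name MAS5). To what target they were scaled is not given in the sources used. Symbols came from the platform's annotation, updated through RefSeq (GRCm38.p6). Of 65956 clusters, 31292 had 1 symbol, 1522 several and 33142 none, and the 1-symbol cluster with the highest mean stood for its gene. Log2 signals, without pseudocount, of genes with at least 100 in at least 2 arrays were fitted with limma 3.58.1 (R 4.3.3) with exposure and sex as terms and a variance trend. The Benjamini-Hochberg adjustment ran over all 10716 genes. Pools were compared, not animals, and the number of arrays limits the precision. Means and folds were computed with Python 3.11.15 and pandas 2.3.3.

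The members and gene lists were chosen with earlier results of these data known. All members are named. Of the other lists, genes past the threshold and the 4 with the largest mean absolute log2 BBP/control are named, and of marker lists the 2 with the largest.

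Tested on simulated data (10716 genes, 10 sets), the fit called 46.7% of 2-fold and 97.5% of 4-fold changes. Of its calls at an adjusted p under 0.05, 7.99% were false, and 0 seeded changes were called in the wrong direction. The simulated errors were independent, without a sex effect or a shift between arrays, so these rates do not cover such differences in the real arrays. Alternatives were other scalings, filters, a pseudocount of 50, all clusters with 1 symbol, other variance models and leaving out each pool. A fit over every cluster and other choices of cluster or members for the cytosolic median were added after the data were seen. RT-PCR and serum data were not analysed here.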

Additional observations from a re-analysis of the deposited data

How the results depend on the processing

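Under all 14 alternatives 0 of 8 tested members were called, and the lowest adjusted p of a member in limma was 0.073. The log2 fold changes of Hsph1 (−1.22 to −0.82), Hspe1 (−0.98 to −0.46), Hspd1 (−0.84 to −0.40), Chordc1 (−0.71 to −0.44), Hsp90aa1 (−0.68 to −0.32), Dnajb1 (−0.38 to −0.22) and Hspa9 (−0.42 to −0.16) stayed below 0, while that of Hspa8 turned to 0.075 with quantile normalization and to 0.091 with the arrays scaled to the same median.

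Over all genes, limma called 154 higher and 127 lower. The counts were 86 and 34 with a pseudocount of 50 and 160 and 29 with the same median. Both were 0 with quantile normalization, with no signal filter, with a signal of at least 200, without the sex term and over every transcript cluster, and 0 (lowest and highest) when the fit left out a pool and the sex term. In the main fit 646 genes were higher and 2257 lower at an unadjusted p under 0.05. The median of the 3 mitochondrial members (−0.62) was −0.46 with quantile normalization, −0.48 with the same median, −0.60 with a pseudocount of 50 and −0.78 to −0.40 without 1 pool, and that of the 5 cytosolic members tested (−0.55) was −0.32 with quantile normalization, −0.41 with the same median and −0.68 to −0.42 without 1 pool. The causes were not tested. No paired analysis by replicate number was possible because each group is a single array. The sex term of the main fit pairs the pools of each sex, and its removal is the alternative without the sex term. Values near the top of the scale (Hspa8) and near background (Hspa1a, and Klf1 in the BBP pools) limit what can be read.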
